A study of Homo sapiens with 12 samples.

Results

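MS13-treated PC-3 cells were compared with MS13-treated DU 145 cells, 3 samples of each line, which are 6 of the 12 samples of the series as their labels give the line and the treatment. Both lines were exposed to 16 µM MS13 for 24 h. The other 6 samples, 3 PC-3 and 3 DU 145 controls without MS13, served as background, and by the study's methods they were given medium with DMSO. MS13 is a diarylpentanoid made as an analog of curcumin, a turmeric compound, with a shortened linker between its aromatic rings. PC-3 and DU 145 are established human prostate cancer lines that grow without androgen. PC-3 came from a bone metastasis of an adenocarcinoma and was grown in F-12K medium, whereas DU 145 came from a brain metastasis of a carcinoma and was grown in EMEM, so line and medium cannot be told apart. Each group stands for 1 established line and not for a class of tumours. RNA levels came from nCounter assays of a cancer pathway panel, in which a colour-coded probe binds each transcript and the codes are counted without amplification. The question was which differences between the lines remained with MS13, which were lost and which appeared with MS13 alone.

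The values were raw counts of 770 panel genes, with totals of 437471 to 495514 for PC-3 and 508284 to 604629 for DU 145 with MS13, and 543954 to 587294 for PC-3 and 482298 to 560157 for DU 145 without it. They were scaled by the geometric mean of 40 housekeeping genes, and every level below is a normalized count on that scale. A background limit was set per group from the negative probes (mean plus 2 SD), at 34.1 normalized counts for PC-3 and 20.5 for DU 145 with MS13, and 28.3 for PC-3 and 27.5 for DU 145 without it. Where 1 line lay under its limit, the fold was computed against that limit and is a lower bound, written as "at least". Among genes above the limit, the median coefficient of variation between samples was 5.52% in MS13-treated PC-3 cells and 5.96% in MS13-treated DU 145 cells. Between PC-3 control replicates 2 and 3 no difference beyond sampling noise was found, and they were counted as 1 sample, so that group has n = 2 in the tests. The study's methods call the replicates biological, whereas the labels only number the samples within a group and tie none to a separate culture, so the p-values measure the spread between these samples.

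Several genes on the panel tell prostate cancer lines apart. TMPRSS2 is a surface protease of prostate epithelium, and ETV1 and ETV4 are ETS transcription factors that are recurrently activated in prostate tumours. The MAPK pathway, on which much of the panel is built, is held in check by its own targets, the DUSP phosphatases and the Sprouty proteins, so that their levels follow the activity of the pathway. In the heat shock response, misfolded protein frees the factor HSF1, which switches on chaperone genes.

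The labels were first checked against the line identity genes. ETV1 had 462, 448 and 483 normalized counts in the MS13-treated PC-3 samples, against 9.07, 6.44 and 6.66 in the MS13-treated DU 145 samples. TMPRSS2 had 369.6, 375 and 365 in PC-3 with MS13, against 13.6, 17.5 and 11.1 in DU 145 with MS13. All of the DU 145 values were under the background limit, and no PC-3 sample overlapped with DU 145. Of the 13 identity genes listed for this check 10 were on the panel. ETV4 was 4.65-fold higher and CDKN2A, an inhibitor of CDK4 and CDK6, 3.91-fold lower in MS13-treated PC-3 cells (log2 difference 2.21 ± 0.11 and -1.97 ± 0.11, SE). RB1 and STK11 differed by less than 2-fold between the lines (log2 0.19 ± 0.07 and 0.09 ± 0.11, with the sign turning under both other scalings). Of 12 leukocyte genes on the panel, 2 were above the limit in each line with MS13 (CD40 and IL7R in PC-3, CD40 and RASGRP1 in DU 145), with summed levels of 368 to 427 in MS13-treated PC-3 and 307 to 364 in MS13-treated DU 145 samples. Of 9 stromal and endothelial genes, COL5A1 and COL5A2 in PC-3 and COL5A2 in DU 145 were above it, and their sums were 471 to 566 in MS13-treated PC-3 samples and 95.3 to 112 in MS13-treated DU 145 samples. COL5A1 and COL5A2 also belong to the matrix genes described below. Each sample was a culture of an established line, and the presence of other cells was not tested.

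The test was against no difference, and 2-fold was required of the fitted value alone, so a true difference of 2-fold is not shown for each called gene. With MS13, 189 of the 688 genes tested (27.5%) were called, at a fitted line difference of 2-fold or more and an adjusted p of 0.05 or less in edgeR's quasi-likelihood test with Benjamini-Hochberg adjustment. Of these, 124 genes were higher (18.0%) and 65 lower (9.45%) in PC-3 than in DU 145. The samples of the lines did not overlap in any of the 189, but this also held for 73.3% of all genes tested, so the absence of overlap alone sets few genes apart. In 58 of the 189 genes 1 line was under its background limit, DU 145 in 35 and PC-3 in 23. A further group of 262 genes had a 95% interval of the line difference within 2-fold either way. Just inside the threshold lay ATRX and GATA2 (log2 difference 1.00 and 1.00) and just outside it HDAC6, FANCF and IL6R (0.997, 0.992 and -0.988). In controls the same test called 205 genes (29.8%), 120 higher (17.4%) and 85 lower (12.4%) in PC-3. The difference between both line differences, that with MS13 minus that in controls, was called in 90 genes (13.1%), 55 upward (7.99%) and 35 downward (5.09%).

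The split between higher and lower depended on the scaling. The median log2 line difference with MS13 over genes above background was 0.25 with housekeeping genes, -0.05 with TMM and -0.18 by positive probes A to E, and the share of called genes that were higher in PC-3 was 65.6%, 50% and 42.3% in that order. Lower in PC-3 were 99 genes under TMM and 124 under positive probe scaling. The ratio of the housekeeping to the positive probe scaling factor was 0.852 to 0.914 for PC-3 and 1.11 to 1.24 for DU 145 with MS13, and 0.909 to 0.952 for PC-3 and 0.964 to 1.00 for DU 145 without it. Log2 differences near 1 should therefore be read against a median of 0.25, and the turns in direction found among the named genes and groups stand beside them.

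The sizes of the line differences were much the same in both states. Of the 484 genes above background in both states, 245 had a smaller and the rest a larger line difference with MS13 than in controls, and the median size of the log2 line difference was 0.737 with MS13 and 0.743 in controls. Across these genes the line difference with MS13 correlated with that in controls at a Pearson r of 0.897 (a description over genes, which are not independent replicates). The genes were sorted by fixed rules on the 3 contrasts. 109 were kept, meaning that they were called in the same direction in both states with no called change between them, and 199 were alike, meaning that both 95% intervals lay within 2-fold. 20 converged, 21 narrowed, 5 widened, 2 turned and 8 were called only with MS13, with a called change and an interval within 2-fold in controls. A further 40 genes were called with MS13 but not in controls, and 37 in controls but not with MS13, without meeting the rules of any group. The 20 and 8 are therefore not all the calls that were lost or appeared. These numbers hold for the housekeeping scale, and the genes named below were taken by a rule on size and class or, for further members of a list, after their values were seen.

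**Figure D1:**
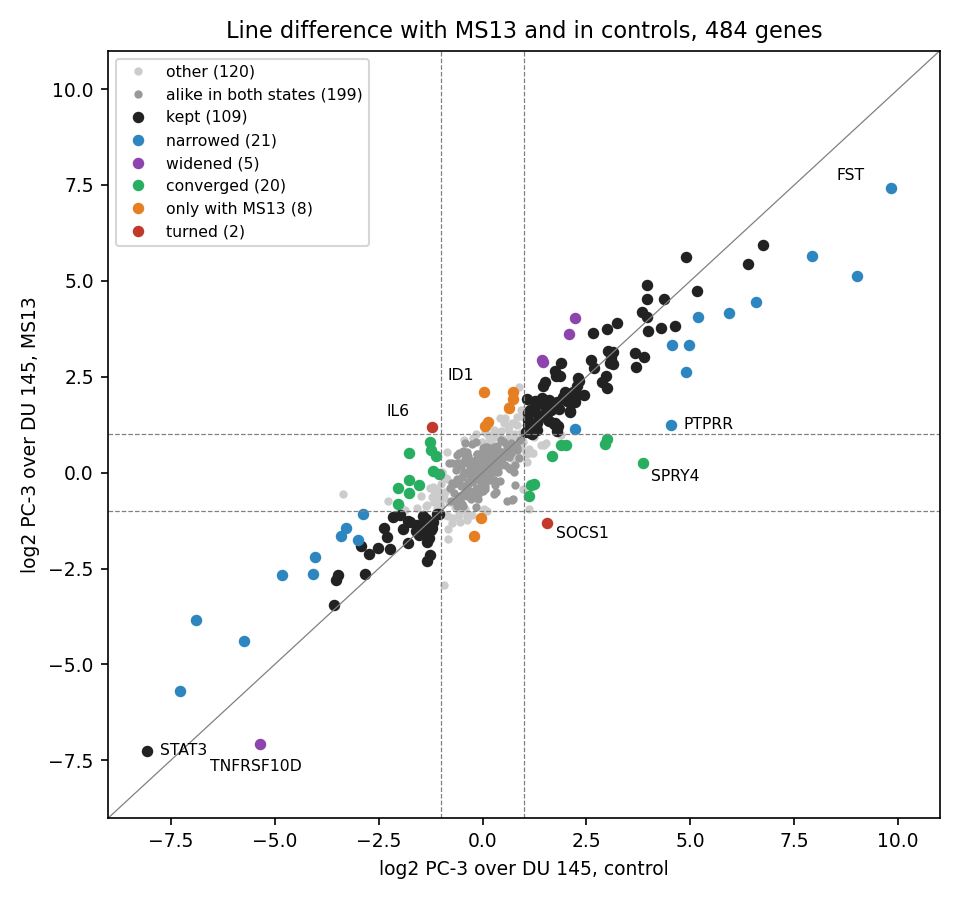
Each point is 1 of the 484 genes above background in both states, with the log2 difference PC-3 over DU 145 in controls on the horizontal axis and with MS13 on the vertical axis, and dashed lines mark 2-fold. Most points lie along the diagonal, whereas SPRY4 and PTPRR sit far below it and ID1 and IL6 above it.

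The kept genes were 76 higher and 33 lower in PC-3, with a median size of the log2 line difference of 1.93 with MS13 and 1.92 in controls. Under TMM and positive probe scaling alike, 87 of the 109 stayed kept. FN1, the matrix glycoprotein fibronectin, had 1833, 1719 and 1744 normalized counts in MS13-treated PC-3 samples, against 36.3, 39.6 and 31.8 in MS13-treated DU 145 samples. ITGB8, an integrin subunit that helps to activate latent TGF-beta, had 1423, 1359 and 1258 in PC-3 with MS13, against 28.7, 30.4 and 34.0 in DU 145 with MS13. The DU 145 samples of both genes lay close to the background limit, and the lines were far apart. The folds were 49.2 for FN1 and 43.4 for ITGB8 (log2 5.63 ± 0.08 and 5.43 ± 0.09, SE). ITGB8, like ETV1 and ETV4, counted as narrowed under both other scalings. DKK1, a secreted inhibitor of Wnt signalling, had 13324, 13388 and 12529 normalized counts in MS13-treated PC-3 and 449.8, 445 and 420.2 in MS13-treated DU 145 samples, with 12778, 12755 and 12604 in PC-3 and 785, 847 and 812 in DU 145 controls. The PC-3 levels of both states overlapped, those of DU 145 did not, and the line difference of 29.8-fold with MS13 (adjusted p = 4.13e-83, edgeR) stood beside 15.6-fold in controls. ETV1 was at least 22.7-fold and TMPRSS2 at least 18.1-fold higher in MS13-treated PC-3 cells. IL8, the neutrophil chemokine also called CXCL8, had 13350.5, 13507 and 13241 in PC-3 with MS13, against 1049, 1059 and 991 in DU 145 with MS13, a 12.9-fold difference.

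STAT3, the transcription factor that relays IL-6 family signals, was the kept gene furthest on the DU 145 side. It had 7.22, 10.5 and 11.8 normalized counts in MS13-treated PC-3 samples and 1495, 1581 and 1506 in MS13-treated DU 145 samples, beside 14.5, 9.42 and 7.15 in PC-3 controls and 2773, 2791 and 2765 in DU 145 controls. PC-3 was far below the limit in both states, so STAT3 was at least 44.8-fold lower in PC-3 with MS13 and at least 98.1-fold lower in controls. PRKAR2B, a regulatory subunit of protein kinase A, was at least 9.27-fold lower in MS13-treated PC-3 cells. PRKAR2B had 36.1, 21.1 and 28.9 normalized counts in PC-3 and 328, 315 and 306 in DU 145 with MS13, with no overlap.

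**Figure D2:**
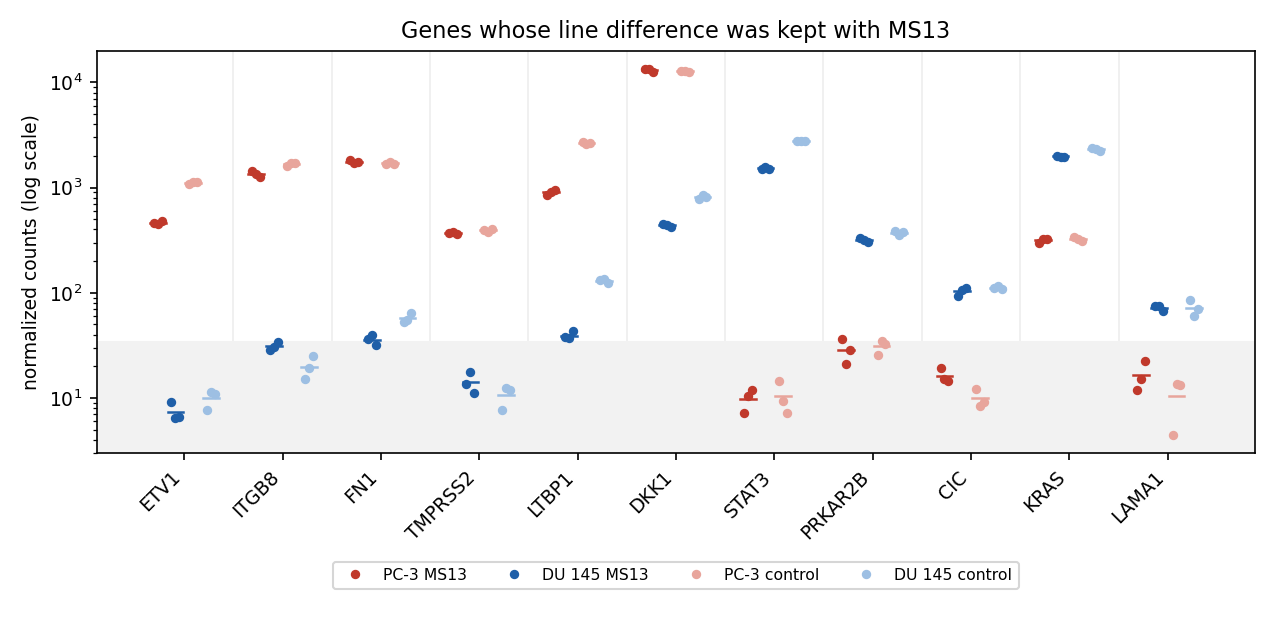
Normalized counts per sample on a log axis for 11 genes whose line difference was kept, MS13-treated PC-3 (dark red), MS13-treated DU 145 (dark blue), PC-3 controls (light red) and DU 145 controls (light blue), with bars at group means and grey shading up to the highest background limit. For ETV1, TMPRSS2, STAT3 and LAMA1 1 line stays in the shaded range in both states.

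The 20 converged genes had a called line difference in controls and a 95% interval within 2-fold with MS13. 9 of them were higher and 11 lower in PC-3 controls than in DU 145 controls, and by the ratio of group means DU 145 had the larger change in 14 and PC-3 in 6. In 2 of the 20, ARNT2 among them, 1 line was under its limit with MS13, so that a line difference within 2-fold is not established there. Converged does not mean equal, since with MS13 the samples of the lines still did not overlap in 16, and 16 still differed at an adjusted p of 0.05 or less. In 7 of those 16 the line difference with MS13 was opposite in sign to that in controls. Under TMM and positive probe scaling alike, 12 of the 20 stayed in this group (SPRY4, DUSP6, ITGA2, GADD45B, BDNF, KLF4, CDC25A, EPHA2, FANCB, FOSL1, NFKBIA and SMAD9, with FANCB at a line difference near 0 whose sign turned under positive probe scaling), while ARNT2, CCNB1, FZD7, IGF1R, IL24, MLLT4, VEGFA and WNT5B left it under at least 1 of them.

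SPRY4, a Sprouty protein that restrains receptor tyrosine kinase signalling to MAPK, converged furthest. It had 211, 207 and 202 normalized counts in MS13-treated PC-3 samples and 181, 168 and 175 in MS13-treated DU 145 samples. In controls the levels were 394, 367 and 335 in PC-3 and 27.2, 27.8 and 20.9 in DU 145, where the mean was under the limit. The lines lay 1.18-fold apart with MS13, a direction that turned under TMM and positive probe scaling (log2 -0.06 and -0.19), and at least 13.5-fold apart in controls. The change in the line difference was -3.61 ± 0.17 on the log2 scale (adjusted p = 1.07e-32, edgeR).

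DUSP6, a cytoplasmic phosphatase of ERK, had 933, 914 and 844 normalized counts in PC-3 and 552, 534 and 516 in DU 145 with MS13, beside 1641, 1673 and 1617 in PC-3 controls and 213, 224 and 198 in DU 145 controls. The 7.78-fold line difference of the controls stood at 1.68-fold with MS13, with the PC-3 level lower and the DU 145 level higher than in the line's own controls. ITGA2, the collagen-binding integrin alpha 2, had the same shape. Its levels were 1396, 1395 and 1460.0 in MS13-treated PC-3 samples and 779, 785 and 731 in MS13-treated DU 145 samples, against 2312, 2391 and 2429.5 in PC-3 and 270.3, 289 and 324 in DU 145 controls, and the change in the line difference was -2.11 ± 0.08. FOSL1, an AP-1 subunit, and EPHA2, an ephrin receptor kinase, converged mainly through PC-3. FOSL1 had 1973, 2132 and 2246 in PC-3 and 1229, 1391 and 1233 in DU 145 with MS13, and 4677, 4625 and 4585 in PC-3 and 1168, 1269 and 1289 in DU 145 controls.

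The genes that were lower in PC-3 controls converged as well. GADD45B, a stress-induced regulator of growth arrest, had 2083, 2255 and 2289.7 normalized counts in MS13-treated PC-3 samples and 1579, 1574 and 1494 in MS13-treated DU 145 samples, beside 159, 172 and 182 in PC-3 and 538, 599 and 614 in DU 145 controls. PC-3 thus stood above DU 145 with MS13 and below it without, and the line difference moved by 2.29 ± 0.09 (adjusted p = 5.06e-37, edgeR). NFKBIA, which encodes the NF-kB inhibitor IkB alpha, crossed in the same way, with 2245, 2360.2 and 2277 in PC-3 and 1545, 1542 and 1447 in DU 145 with MS13 and 1485, 1554 and 1448 in PC-3 and 3623, 3479 and 3398 in DU 145 controls. BDNF, a neurotrophin, had 246, 261 and 211 in PC-3 and 139, 129.7 and 141 in DU 145 with MS13, against 177, 178 and 186 in PC-3 and 404, 461 and 441 in DU 145 controls. For BDNF the DU 145 level changed more than the PC-3 level. CCNB1, the cyclin that drives entry into mitosis, had 1321, 1319.5 and 1314 in PC-3 and 1256, 1316 and 1270.3 in DU 145 with MS13, which overlapped, against 3501, 3663 and 3646 in PC-3 and 8212, 8195 and 8107 in DU 145 controls, which did not. Its small line difference with MS13 (log2 0.04) turned to -0.26 with TMM and -0.39 with positive probes, where it left the converged genes. VEGFA, the main angiogenic growth factor, remained 1.76-fold lower in MS13-treated PC-3 cells, against 4.06-fold lower in controls, and under both other scalings it counted as kept.

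**Figure D3:**
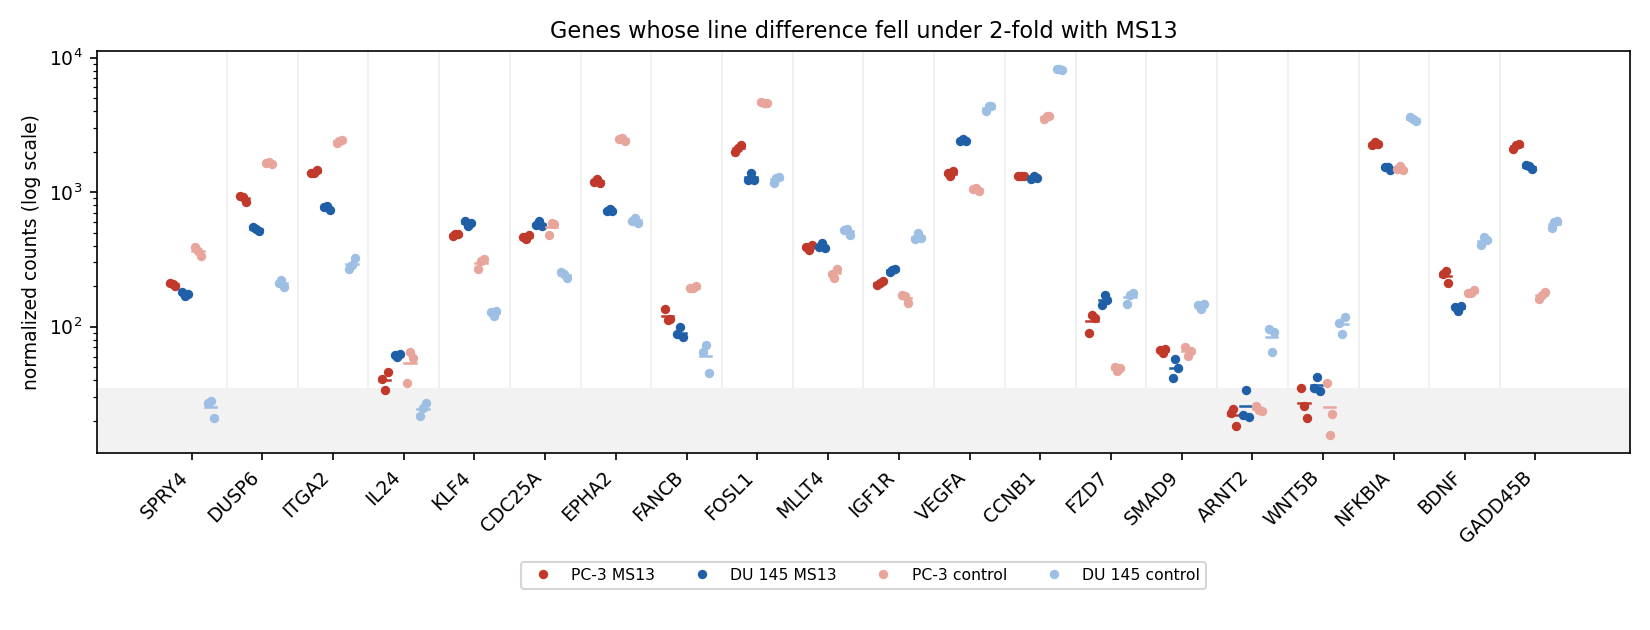
Normalized counts per sample on a log axis for the 20 converged genes, ordered by the change in the line difference, with colours, mean bars and shading (up to the highest background limit) as in the plot of kept genes. The dark red and dark blue points (MS13) of each gene lie closer together than the light ones (controls), and DU 145 controls of SPRY4 lie in the shaded range.

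Of the 8 genes called only with MS13, 6 were higher and 2 lower in PC-3, and by the ratio of group means DU 145 had the larger change in 7 of them. ID1, an inhibitor of helix-loop-helix factors and a target of BMP signalling, had 5021, 4991 and 5351 normalized counts in MS13-treated PC-3 samples and 1199, 1210.4 and 1138 in MS13-treated DU 145 samples. In controls the levels were 5944, 5923 and 5869 in PC-3 and 5698, 5770.1 and 5704 in DU 145. The lines were 1.03-fold apart in controls and 4.33-fold apart with MS13 (log2 2.12, 95% interval 2.04 to 2.19), and the change in the line difference was 2.07 ± 0.06 (adjusted p = 4.1e-48, edgeR).

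CDC6, which loads the replicative helicase onto origins, stood the other way. It had 1671, 1671 and 1682 normalized counts in PC-3 and 5419, 5317 and 5047 in DU 145 with MS13, beside 1421, 1316 and 1299 in PC-3 and 1616, 1556 and 1499 in DU 145 controls, so that the MS13-treated DU 145 samples stood far above the other 3 groups. FEN1, the flap endonuclease that trims Okazaki fragments, had 541, 567 and 589 in PC-3 and 1315, 1211 and 1295 in DU 145 with MS13, against 1328, 1259 and 1279 in PC-3 and 1241, 1392 and 1349.6 in DU 145 controls. Here it was MS13-treated PC-3 that stood apart. PLCB4, a phospholipase C, was 4.31-fold higher in MS13-treated PC-3 (171, 178 and 197) than in MS13-treated DU 145 cells (45.4, 41.4 and 40.0), and 1.62-fold higher in controls. E2F5, a repressive E2F factor, was 3.76-fold higher with MS13 and 1.69-fold higher in controls, so that neither was equal in controls. With MS13, MECOM, a zinc finger transcription factor, was 2.53-fold higher, TCF7L1, a repressive TCF factor, 3.18-fold and APH1B, a gamma-secretase subunit, 2.29-fold. Of the 8, CDC6, FEN1, ID1 and PLCB4 stayed in the group under TMM and positive probe scaling, and the other 4 left it under both.

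In 9 of the genes called with MS13, HSPA6 among them, both lines were at background in controls. For 4 of these the change in the line difference was called as well, but without a measured line difference in controls it fixes no size. MMP3, the matrix protease stromelysin, had 83.1, 70.3 and 70.9 normalized counts in PC-3 and 308, 281 and 262 in DU 145 with MS13, against 8.92, 14.6 and 8.18 in PC-3 and 10.9, 7.68 and 8.98 in DU 145 controls. NGFR, the low-affinity neurotrophin receptor, had 26.5, 24.6 and 35.4 in PC-3, under the limit on average, and 83.9, 80.0 and 87.3 in DU 145 with MS13, and was at least 2.45-fold lower in PC-3. IL1A and FGF13 were at least 2.07-fold and at least 1.70-fold higher in MS13-treated PC-3 cells. MMP3 and NGFR stayed in this group under both other scalings, and IL1A and FGF13 left it. In 11 genes the reverse held, with a called line difference in controls and background levels in both lines with MS13, among them BCL2, the anti-apoptotic founder of its family, and TNFSF10, the death ligand TRAIL. BCL2 had 20.5, 28.1 and 27.6 in PC-3 and 18.1, 12.9 and 10.4 in DU 145 with MS13, beside 51.3, 32.4 and 30.7 in PC-3 and 16.3, 9.60 and 11.97 in DU 145 controls.

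2 genes turned, that is, were called in opposite directions. SOCS1, which blocks JAK kinases, had 90.3, 111 and 119 normalized counts in MS13-treated PC-3 samples and 269, 285 and 239.7 in MS13-treated DU 145 samples, against 95.9, 80.6 and 72.6 in PC-3 and 29.4, 27.8 and 26.9 in DU 145 controls. It was 2.47-fold lower in PC-3 with MS13 and 3.07-fold higher in PC-3 in controls, with a change in the line difference of -2.86 ± 0.21. The DU 145 control mean of SOCS1 (28.1) lay at its limit of 27.5, with replicate 3 under it, so the size of that change is uncertain. IL6, an inflammatory cytokine, had 96.3, 101 and 76.1 in PC-3 and 34.0, 35.9 and 49.6 in DU 145 with MS13, against 95.9, 62.8 and 85.9 in PC-3 and 182, 194 and 195 in DU 145 controls. PC-3 levels of IL6 overlapped between the states, and those of DU 145 did not. IL6 was 2.29-fold higher in PC-3 with MS13 and 2.23-fold lower in controls, but with TMM its MS13 difference was 0.89 on the log2 scale and no longer reached 2-fold. DUSP5, a nuclear ERK phosphatase, crossed without passing the fold threshold with MS13. It had 3066, 3041 and 3045 in PC-3 and 5898, 6105 and 5723 in DU 145 with MS13, beside 2001, 2041 and 1886 in PC-3 and 925, 862 and 926 in DU 145 controls, a change of -2.08 ± 0.06.

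**Figure D4:**
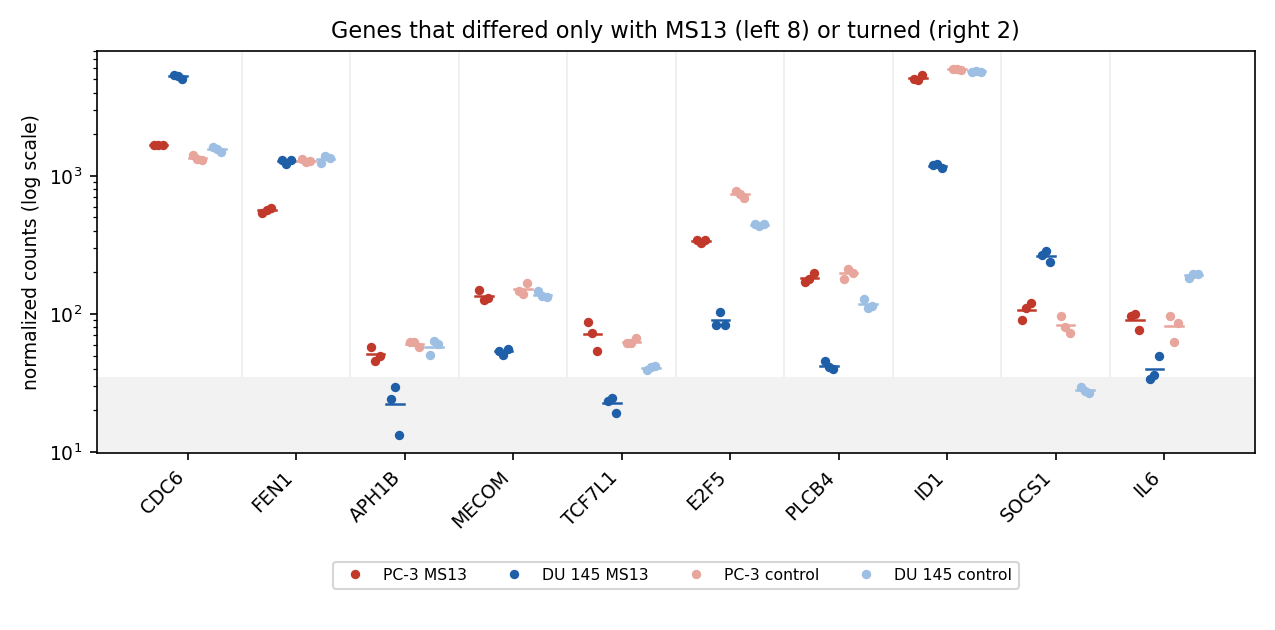
Normalized counts per sample on a log axis for the 8 genes called only with MS13 and the 2 that turned (SOCS1 and IL6), with colours, mean bars and shading (up to the highest background limit) as in the plot of kept genes. For CDC6 and ID1 the dark blue points (MS13-treated DU 145) stand apart from the other 3 groups, whereas for FEN1 the dark red points (MS13-treated PC-3) do.

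5 genes widened by the fitted difference. CDH1, the epithelial adhesion molecule E-cadherin, had 1138, 1065 and 1033 normalized counts in PC-3 and 151, 148 and 138 in DU 145 with MS13, against 1040.4, 1029.6 and 1067 in PC-3 and 352, 370.5 and 412 in DU 145 controls. The PC-3 levels of the states overlapped, and the line difference was 7.41-fold with MS13 and 2.76-fold in controls (change 1.43 ± 0.10, adjusted p = 7.3e-23, edgeR). NUPR1, a small stress-induced chromatin protein, had 398, 371 and 291 in PC-3 and 22.7, 23.0 and 19.2 in DU 145 with MS13, a 16.4-fold difference against 4.68-fold in controls. The DU 145 mean of NUPR1 with MS13 (21.6) lay at its limit of 20.5, with replicate 3 under it, so the size of its widening is uncertain. TNFRSF10D, a decoy receptor for TRAIL, was under the limit in PC-3 in both states and had 1925, 1967 and 1952 in DU 145 with MS13, against 732, 711 and 732 in DU 145 controls. It was at least 57.1-fold lower in PC-3 with MS13 and at least 25.6-fold lower in controls. The growth factors EGF and FGF5 were under the limit in DU 145 in both states and were at least 2.63-fold and at least 3.70-fold higher in PC-3 with MS13. With bounds in both states, neither the size nor the direction of the change in line difference is fixed for TNFRSF10D, EGF and FGF5. Without DU 145 control replicate 2 the fitted change of FGF5 was 1.25 and missed the threshold (adjusted p = 0.0505, edgeR).

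The 21 narrowed genes were 11 higher and 10 lower in PC-3, and stayed called with MS13 at a smaller fitted difference. In 17 of them 1 line was under its limit in at least 1 state, so that the fitted change fixes no size, and in 9 the same line was under it in both states, where both folds are bounds and a smaller difference is not established. The largest with MS13 was that of FST, follistatin, which binds and neutralises activins. FST had 4738, 4732 and 4636 normalized counts in MS13-treated PC-3 samples and 32.5, 24.8 and 23.7 in MS13-treated DU 145 samples. It was 174-fold higher in PC-3 with MS13 and at least 359-fold higher in controls, where PC-3 had 9772, 9963 and 9986 and DU 145 10.9, 8.64 and 13.0. INHBB, an activin subunit, had 1133, 1010.2 and 1264 in PC-3 and 30.2, 38.6 and 29.6 in DU 145 with MS13, against 3187, 3237 and 3178 in PC-3 and 6.54, 5.76 and 5.98 in DU 145 controls. Both genes had lower levels in PC-3 with MS13 than in PC-3 controls. In DU 145 FST lay near or under the limit in both states. INHBA, the other activin subunit on the panel, was 21.8-fold higher in PC-3 with MS13 and at least 28.6-fold higher in controls.

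PLAT, tissue plasminogen activator, had 1890.0, 1747 and 1645 in PC-3 and 30.2, 40.5 and 35.5 in DU 145 with MS13, beside 8378, 8169 and 7827 in PC-3 and 25.1, 41.3 and 33.9 in DU 145 controls, so that its narrowing lay with PC-3. DUSP4, another ERK phosphatase, had the same shape, with 2050.1, 2078 and 1860.4 in PC-3 and 114, 123 and 99.9 in DU 145 with MS13 and 5348, 5377 and 5246 in PC-3 and 86.1, 75.8 and 99.7 in DU 145 controls. PTPRR, a tyrosine phosphatase of ERK, narrowed through DU 145, although its call with MS13 was lost under TMM (log2 0.95) and positive probe scaling (0.82). It had 184, 169.9 and 192 in PC-3 and 74.1, 75.4 and 79.2 in DU 145 with MS13, against 227, 243 and 223 in PC-3 and 4.36, 11.5 and 13.0 in DU 145 controls. JAG1, a Notch ligand, had 603, 625 and 638 in PC-3 and 96.0, 110.4 and 97.7 in DU 145 with MS13, against 894, 867 and 914 in PC-3 and 24.0, 32.6 and 32.9 in DU 145 controls, and its line difference changed by -2.26 ± 0.16. The DU 145 control mean of JAG1 (29.8) lay close to its limit of 27.5, with replicate 1 under it, so the size of that change is uncertain. On the other side, HIST1H3G, a histone H3 gene of dividing cells, was under the limit in PC-3 in both states and had 296, 293 and 259.7 in DU 145 with MS13, against 2798, 2826 and 2849.8 in DU 145 controls. SHC1, an adaptor of receptor tyrosine kinases, was 3.41-fold lower in PC-3 with MS13 and 7.98-fold lower in controls, and counted as kept under both other scalings.

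Among the heat shock genes, which respond to damaged protein, 1 was called higher and 1 lower in MS13-treated PC-3 cells, 33.3% of the list beside 27.5% of all genes tested. HSPA6, an inducible HSP70, had 33050.0, 34926 and 36977 normalized counts in MS13-treated PC-3 samples and 10814, 10713 and 10202 in MS13-treated DU 145 samples, while its mean was under the background limit in controls of both lines. All PC-3 samples lay above all DU 145 samples, and the difference with MS13 was 3.31-fold (log2 1.73 ± 0.04, adjusted p = 5.38e-58, edgeR). HSPA2, an HSP70 best known from the testis, went the other way, with 762, 690.2 and 696 in PC-3 and 1658, 1702 and 1716 in DU 145 with MS13, a 2.36-fold difference, beside 202, 213 and 209 in PC-3 and 278, 269 and 258 in DU 145 controls. The 4 other genes of the list (UBB, HSPA1A, HSPB1 and HSP90B1) were alike in both states, with log2 differences with MS13 of 0.86, 0.74, 0.21 (negative under both other scalings) and -0.12, and the split of 1 higher and 1 lower held under the 3 scalings. HSPA1A, the major inducible HSP70, had 3477, 3868 and 4126 in PC-3 and 2218, 2414 and 2249 in DU 145 with MS13, against 41.3, 33.5 and 40.9 in PC-3 and 52.3, 35.5 and 49.9 in DU 145 controls. The promoters of HSPA6 and HSPA2, the 2 members that differed between the lines and did so in opposite directions, follow here from RefSeq (GRCh38.p14, both on the plus strand, 250 bases before to 50 after the start). Capitals mark matches to the inverted GAA core of heat shock elements, searched as GAANNTTC and TTCNNGAA, each of which reads the same on both strands.
HSPA6, chr1:161524290-161524589: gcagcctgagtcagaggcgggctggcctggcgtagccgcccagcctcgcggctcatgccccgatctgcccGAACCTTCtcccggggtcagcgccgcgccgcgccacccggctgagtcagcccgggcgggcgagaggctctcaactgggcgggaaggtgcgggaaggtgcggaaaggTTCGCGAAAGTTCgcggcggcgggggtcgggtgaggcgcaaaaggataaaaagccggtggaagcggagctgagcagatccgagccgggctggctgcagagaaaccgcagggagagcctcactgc
HSPA2, chr14:64540491-64540790: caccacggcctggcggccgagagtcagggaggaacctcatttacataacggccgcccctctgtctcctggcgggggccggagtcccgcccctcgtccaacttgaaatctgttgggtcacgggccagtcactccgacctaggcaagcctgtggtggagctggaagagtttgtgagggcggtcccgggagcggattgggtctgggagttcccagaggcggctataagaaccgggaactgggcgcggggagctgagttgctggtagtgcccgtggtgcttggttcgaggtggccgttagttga
The HSPA6 window held 3 matches, of which 2 overlap, and the HSPA2 window held none. The windows of HSPA1A and HSPB1 held 1 each, and those of UBB and HSP90B1 held none. Such a match occurred in 13.5% of the 35116 promoters searched, and it describes letters only. By symbol, 572 of the 770 panel genes were among those promoters, and the share of panel genes with a match was not computed.

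Other stress genes split. Of 7 genes for CHOP, the GADD45 proteins and oxidative stress, 1 was higher (NUPR1) and 2 were lower in MS13-treated PC-3 cells (DDIT4 and GADD45G), with 3 lower under positive probe scaling. The 42.9% called stood beside 27.5% of all genes tested. DDIT4, which restrains mTOR, was 2.72-fold lower and GADD45G at least 3.52-fold lower. GADD45A, induced by DNA damage and stress, was alike, at 9676, 9778 and 9798 in PC-3 and 6252, 6243 and 6032 in DU 145 with MS13, against 1021, 1017 and 996 in PC-3 and 566, 593 and 582 in DU 145 controls. DDIT3, which encodes CHOP, was alike as well (log2 -0.59). CDKN1A, the CDK inhibitor p21, was kept lower in PC-3, with 851, 896 and 814 in PC-3 and 2440.5, 2485 and 2342 in DU 145 with MS13, against 137, 151 and 156 in PC-3 and 398, 389.7 and 386 in DU 145 controls. The line difference of CDKN1A was 2.84-fold with MS13 and 2.69-fold in controls.

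Among the MAPK phosphatases and brakes, fewer were called higher in PC-3 with MS13 than in controls. Of 11 tested, 4 were higher and 0 lower in MS13-treated PC-3 cells, against 9 higher and 1 lower in controls, and the change in the line difference was called downward in 5 (DUSP4, DUSP5, DUSP6, PTPRR and SPRY4) and upward in 0. The 36.4% called with MS13 stood beside 27.5% of all genes tested. Over all genes 29.8% were called in controls, and 5.09% changed downward and 7.99% upward. Their median log2 line difference was 0.73 with MS13 and 1.87 in controls, beside 0.25 and 0.06 over all genes above background. With TMM 3 were higher and 1 lower, and with positive probes 3 and 2. DUSP10, a phosphatase of JNK and p38, and SPRY1 were kept at 2.78-fold and 3.53-fold higher in PC-3 with MS13.

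Genes of DNA replication were called lower in MS13-treated PC-3 cells and none was called higher. 0 of 18 were called higher and 5 lower (CDC6, MCM2, MCM5, POLE2 and HIST1H3G), with a median log2 difference of -0.86, against -0.20 in controls, where 1 was lower. Over all genes tested 18.0% were called higher and 9.45% lower. TMM and positive probe scaling each called 9 lower and 0 higher. MCM5, a subunit of the replicative helicase, had 120.4, 132 and 123 normalized counts in PC-3 and 424, 424 and 393 in DU 145 with MS13, against 301, 258 and 257 in PC-3 and 489, 513 and 449.9 in DU 145 controls, with no overlap between the lines with MS13. MCM2 was 2.22-fold and POLE2, a subunit of DNA polymerase epsilon, 2.29-fold lower in MS13-treated PC-3 cells. The change between states was called for CDC6 and HIST1H3G alone, in opposite directions. FEN1, a replication gene outside the list, was called lower in PC-3 as given above.

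Of 36 DNA repair genes 1 was higher and 8 were lower in MS13-treated PC-3 cells (12 and 16 lower under TMM and positive probe scaling). The 25% called were close to the 27.5% of all genes tested, of which 18.0% were higher and 9.45% lower, and the median was -0.29. Among the 8 were FANCA, FANCC, FANCE, FANCG and UBE2T of the Fanconi anaemia pathway, BRCA1 and BRCA2. The pathway was not uniform, since FANCF and FANCB were higher in PC-3 with MS13 without being called (log2 0.992 and 0.42). FANCL was lower, at 150, 154 and 146 in PC-3 and 302, 281 and 283 in DU 145 with MS13. In controls 3 were higher and 6 lower. FANCA was 4.49-fold, BRCA2 2.47-fold and BRCA1 2.11-fold lower. FANCC had 143, 129 and 172 in PC-3 and 417, 431 and 405 in DU 145 with MS13. ERCC6, which couples transcription to repair, was the 1 gene of the list called higher, at 9.17-fold, with 577, 540.2 and 515 in PC-3 and 65.8, 51.5 and 60.7 in DU 145 with MS13.

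Cell cycle genes of other phases were mixed. Of 18 mitotic genes 3 were higher and 0 lower in PC-3 with MS13 (CCNA1 and the cohesin subunits RAD21 and STAG2), but the list turned to 1 higher and 2 lower under TMM and to 0 and 5 under positive probe scaling, and its median was -0.22. RAD21 had 8285, 8278 and 7962 in PC-3 and 3816, 4037 and 3775 in DU 145 with MS13, against 8182, 8299.6 and 8184 in PC-3 and 5804, 6243 and 6041 in DU 145 controls. Of 24 genes of G1, RB and E2F, 6 were higher and 2 lower, against 4 and 3 with TMM and 3 and 5 with positive probes. On the housekeeping scale 33.3% of these and 16.7% of the mitotic genes were called, beside 27.5% of all genes tested. CCND1, cyclin D1, was 3.04-fold higher, at 2475, 2503 and 2665 in PC-3 and 859.6, 841 and 814 in DU 145 with MS13, and CDK6, its kinase partner, was 3.78-fold higher. 11 of the 24 were alike in both states, among them SKP2, CDK2 and CDK4.

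Of 27 laminins, collagens and matrix glycoproteins 7 were higher and 2 lower with MS13 under the 3 scalings, and all 9 were kept. The 33.3% called stood beside 27.5% of all genes tested, among which higher calls also outnumbered lower ones (124 and 65), and the median was 1.97. COL5A2, a fibrillar collagen chain, had 344, 309 and 382 normalized counts in MS13-treated PC-3 and 21.9, 28.5 and 25.2 in MS13-treated DU 145 samples. THBS1, thrombospondin 1, was 6.63-fold and LAMA3, a laminin chain of the epithelial basement membrane, 3.92-fold higher, while LAMA1 and TNC were at least 2.10-fold and at least 3.17-fold lower. Of 11 integrins 3 were higher (ITGB8, ITGB4 and ITGB6) and 1 lower (ITGB3), so that 36.4% were called. ITGB4, the partner of integrin alpha 6 in hemidesmosomes, had 1620.4, 1538 and 1515 in PC-3 and 126, 128 and 98.4 in DU 145 with MS13, against 2815, 2949.7 and 2842 in PC-3 and 347, 369.5 and 350.1 in DU 145 controls.

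TGF-beta, BMP and activin genes were 10 higher and 1 lower of 27 in MS13-treated PC-3 cells (9 and 3 under both other scalings), 40.7% of the list called against 27.5% of all genes tested. Beside FST, INHBA and INHBB the higher ones were LTBP1, which stores latent TGF-beta in the matrix, the ligands BMP4, TGFB2 and TGFB3, the receptor BMPR1B, the antagonist NOG and the target ID1. BMP4 had 294, 287 and 306 in PC-3 and 57.5, 74.5 and 59.2 in DU 145 with MS13, against 177, 206 and 203 in PC-3 and 100.3, 110.4 and 106 in DU 145 controls, and its line difference changed by 1.34 ± 0.15. LTBP1 was 23.1-fold and TGFB2 2.87-fold higher, and BMP6 at least 2.89-fold lower. The intracellular SMAD2, SMAD3 and SMAD4 were alike in both states.

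Notch genes were 8 higher and 0 lower of 21 (6 and 1 with TMM, 6 and 2 with positive probes), with a median of 0.94 and 38.1% called, against 27.5% of all genes tested. The receptors NOTCH2 and NOTCH3 were 3.36-fold and 3.65-fold higher in MS13-treated PC-3 cells, the target HES1 3.56-fold and the ligand DLL1 at least 2.78-fold. NOTCH2 had 643, 659 and 642 in PC-3 and 196, 182 and 199.8 in DU 145 with MS13. Wnt genes were 7 higher and 4 lower of 35 (31.4% called) and turned to 4 and 6 under both other scalings. FZD8, a Wnt receptor, had 268, 232 and 253 in PC-3, against 19.7, 15.6 and 9.62 in DU 145 with MS13, at least 12.3-fold higher. The fitted change in its line difference missed the threshold without DU 145 control replicate 1 (-0.90) or DU 145 MS13 replicate 1 (-0.84). WNT5A was 7.65-fold higher, while the kinase MAPK8 was 2.42-fold lower. TCF3, counted here among the Wnt genes, was 3.09-fold lower. Its symbol names an E protein and not TCF7L1, so its place among the Wnt genes is doubtful, and with it the count of lower ones.

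Cytokines were 6 higher and 0 lower of 15 with MS13 (4 and 1 with TMM, 4 and 2 with positive probes), namely IL8, IL1B, IL1A, IL15, IL23A and IL6, and 40% were called against 27.5% of all genes tested. IL1B, the inflammasome-processed interleukin, had 129, 144 and 130.0 in PC-3 and 14.4, 11.96 and 13.3 in DU 145 with MS13, at least 6.57-fold higher. NF-kB subunits and feedback genes were 1 higher and 1 lower of 12 (16.7% called, and 1 and 2 under both other scalings), and 7 were alike in both states. NFKBIZ, a nuclear IkB, was 3.96-fold higher and CHUK, the kinase IKK alpha, 2.10-fold lower in MS13-treated PC-3 cells, and the CHUK call was lost without PC-3 MS13 replicate 1 (log2 -0.98). Growth factor ligands were 8 higher and 6 lower of 39 (35.9% called), and turned to 6 and 10 under both other scalings. VEGFC, a lymphangiogenic factor, had 889.6, 923 and 894 in PC-3 and 226, 217 and 225 in DU 145 with MS13. PGF, placental growth factor, was lower in PC-3 with MS13, at 203, 207 and 207 in PC-3 and 521, 524 and 471 in DU 145, against 29.0, 20.9 and 24.5 in PC-3 and 30.5, 31.7 and 45.9 in DU 145 controls. Among 23 growth factor receptors and adaptors 3 were higher and 3 lower (26.1% called), against 3 and 4 with TMM and 2 and 5 with positive probes. MET, the HGF receptor, was 2.57-fold higher and FGFR1 and FGFR3 3.54-fold and 4.97-fold lower.

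Death receptors and caspases were 0 higher and 3 lower of 16 (5 and 6 lower under TMM and positive probe scaling), so that 18.8% were called against 27.5% of all genes tested. The 3 were receptors of TRAIL. TNFRSF10B, the signalling receptor DR5, had 229.9, 236 and 209 normalized counts in PC-3 and 595, 669.6 and 599 in DU 145 with MS13, against 159, 216 and 166 in PC-3 and 347, 283 and 331 in DU 145 controls, and was 2.76-fold lower in MS13-treated PC-3 cells. The decoys TNFRSF10C and TNFRSF10D were at least 1.35-fold and at least 57.1-fold lower. CASP8 and CASP9 were alike in both states. In the BCL2 family of 6 genes BID, which links death receptors to mitochondria, was 2.39-fold lower and none was called higher (16.7% called). BCL2L1, the anti-apoptotic BCL-XL, had 1365, 1364 and 1296 in PC-3 and 765, 808 and 687 in DU 145 with MS13, a log2 difference of 0.84 ± 0.05 that missed 2-fold.

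Over all genes tested 199 of 688 were alike in both states and 27.5% were called with MS13. Of the lists that follow, 29.2% of the PI3K, AKT and mTOR genes, 17.6% of the JAK, STAT and SOCS genes and 24.1% of the chromatin list were called. The share was 24% for the study's genes, 60% for the proteases and 33.3% for AP-1 and immediate-early genes. Of 24 PI3K, AKT and mTOR genes 3 were higher and 4 lower (1 and 6 under both other scalings), and 9 were alike, among them AKT1, AKT2, MTOR and PIK3CA. PPP2CB, a catalytic subunit of the phosphatase PP2A, had 3638, 3587 and 3471 in PC-3 and 8305, 8445 and 7868 in DU 145 with MS13, against 1288, 1275 and 1284 in PC-3 and 3285, 3288 and 3275 in DU 145 controls. In JAK, STAT and SOCS genes 1 was higher (IL20RA) and 2 lower of 17 (STAT3 and SOCS1), with 3 lower under both other scalings. Of 54 chromatin regulators and driver transcription factors 11 were higher and 2 lower (7 and 2 with TMM, 7 and 4 with positive probes), and 24 were alike. SMARCA4, the ATPase of the SWI/SNF remodeller, had 1268, 1313 and 1360.2 in PC-3 and 143, 165 and 149 in DU 145 with MS13, and SOX9, a transcription factor of progenitor cells, was 7.12-fold higher. Of 25 genes that the study singled out for the response to MS13, chosen on these samples and so no independent evidence, 3 were higher and 3 lower (3 and 5 with TMM, 3 and 7 with positive probes) and 12 were alike. Plasminogen and matrix proteases were 2 higher and 1 lower of 5, and for PLAU, the urokinase activator at 4648, 4655 and 4488 in PC-3 and 2269.6, 2289 and 2144 in DU 145 with MS13, the call was lost with TMM (log2 0.74). AP-1 and immediate-early genes were 0 higher and 2 lower of 6 under the 3 scalings, the orphan nuclear receptors NR4A1 and NR4A3, at 2.18-fold and 2.12-fold lower. JUN and FOS were alike in both states, and MYC had 2373, 2291 and 2273 in PC-3 and 1254, 1221 and 1195 in DU 145 with MS13, which missed 2-fold (log2 0.92).

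**Figure D5:**
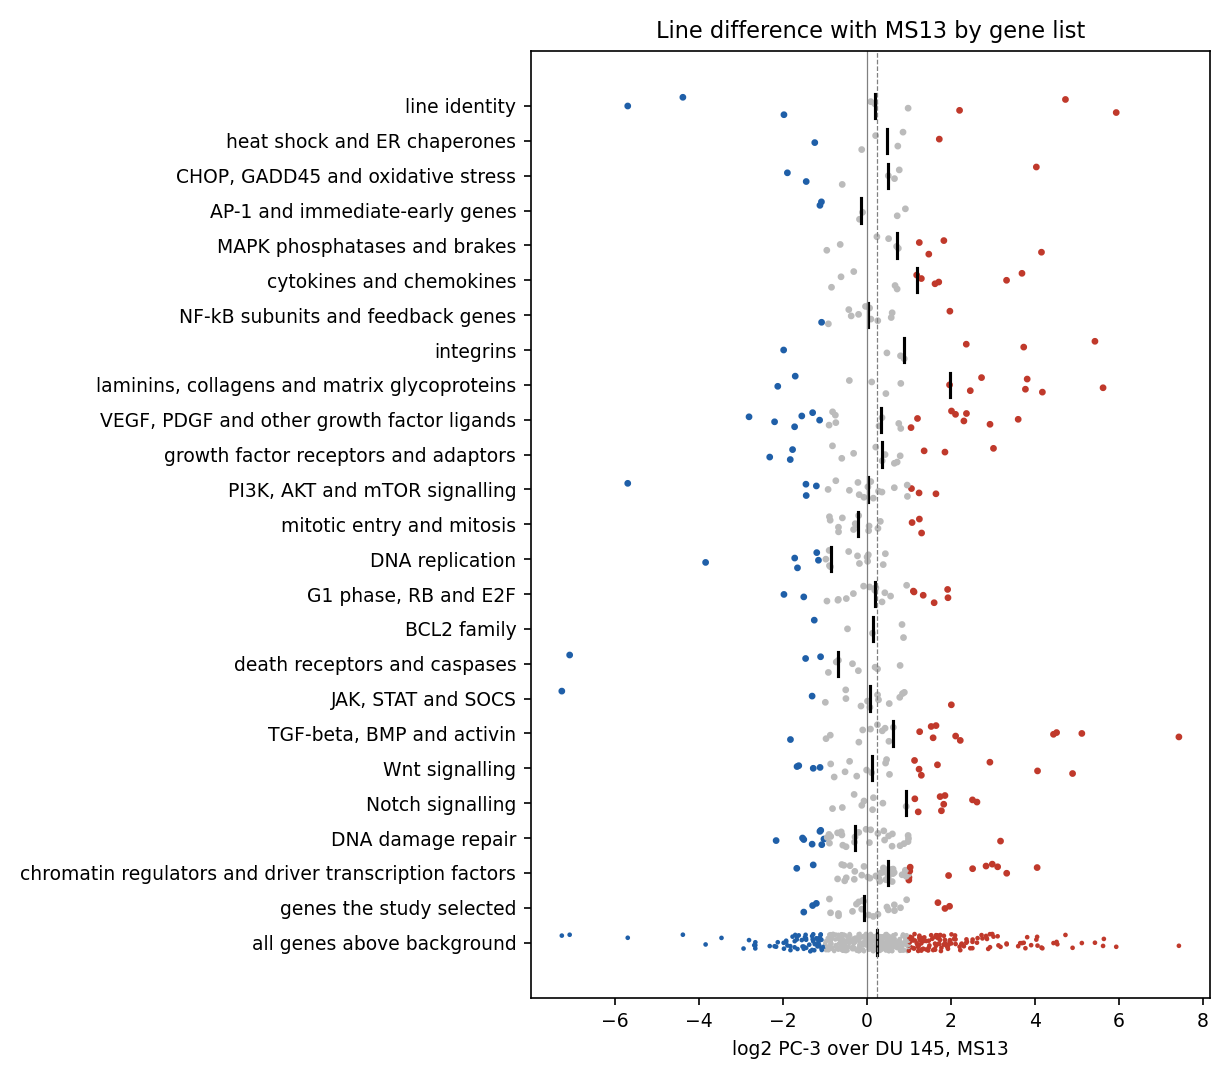
Log2 difference PC-3 over DU 145 with MS13 for the genes of each list above background (red called higher, blue called lower in PC-3, grey not called), with a black bar at each list's median and a dashed line at the median of all genes above background (0.25). Matrix genes and cytokines lie mostly to the right of the dashed line and DNA replication genes to its left.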

How the data were processed

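The authors deposited raw counts per probe for 12 nCounter PanCancer Pathway Panel assays, 1 per sample, with no normalization applied. The housekeeping normalization (geNorm) that the study ran in nSolver and its Advanced Analysis module is not part of these counts. Groups were taken from the labels. The scale was the geometric mean of the panel's 40 housekeeping genes, a list taken from general knowledge of the panel because the files do not mark them. Counts were fitted in edgeR 4.0.16 (R 4.3.3) by the quasi-likelihood test, with 1 model over the 4 groups and contrasts between the lines with MS13, in controls, and the difference of both. PC-3 control replicates 2 and 3 (chi-square over degrees of freedom 1.04, p = 0.202 over the counts of genes, against 1.17 to 2.21 for the other 11 replicate pairs) were added together. Genes with a mean under 10 counts were left out. Called genes passed 0.05 after Benjamini-Hochberg adjustment, a fold of at least 2 and at least 1 line above its background limit. The standard error is the log2 difference over the root of the F statistic, and intervals are 95%. Named genes were the 6 largest each way, the 5 leading genes of each class, up to 2 per list with the smallest adjusted p and all line identity genes, except some genes that are not reported here, and other list members were named after their values were seen. The members and lists were chosen with earlier results of these data known. The script was tested on simulated data. Alternatives were TMM, positive probes A to E, the 10 most stable housekeeping genes, DESeq2 1.42.0, other filters, background subtraction, a 1.5-fold threshold, the MS13 samples alone, and each sample left out. Promoter windows were RefSeq sequences of GRCh38.p14. The number of samples and the counts of dim genes near the negative probes limit the precision.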

Additional observations from a re-analysis of the deposited data

Results flagged for a closer look

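In 29 of the named genes the line difference with MS13 differed from that in controls, by edgeR's quasi-likelihood test of the difference itself, at 2-fold or more and under 0.05 after Benjamini-Hochberg adjustment. Values are log2, PC-3 over DU 145 with MS13 minus the same in controls, so that a negative value means a line difference lying further towards DU 145 with MS13. Among the MAPK brakes they were -3.61 for SPRY4, -3.29 for PTPRR, -2.21 for DUSP6, -2.08 for DUSP5 and -1.77 for DUSP4. Among secreted and surface genes they were -3.89 for INHBB, -2.39 for FST, -2.27 for PLAT, -2.26 for JAG1, -2.11 for ITGA2, -1.73 for TNFRSF10D, -1.22 for IL1B and -1.11 for FZD8, and 2.41 for IL6, 2.08 for BDNF, 1.53 for FGF5, 1.5 for EGF and 1.43 for CDH1. Among stress, signalling and transcription genes they were -2.86 for SOCS1 and -1.17 for FOSL1, and 2.29 for GADD45B, 2.07 for ID1, 1.80 for NUPR1, 1.37 for PLCB4, 1.23 for SHC1 and 1.2 for MECOM. Among cell cycle genes they were 3.05 for HIST1H3G, 1.18 for E2F5 and -1.45 for CDC6. For SPRY4, PTPRR, INHBB and FST DU 145 was under its background limit in controls, so these values fix no size. For JAG1 and SOCS1 in controls and NUPR1 with MS13 the DU 145 mean lay close to its limit, so their sizes are uncertain. For TNFRSF10D and HIST1H3G (PC-3) and IL1B, FZD8, FGF5 and EGF (DU 145) 1 line was under it in both states, so these values fix neither a size nor a direction.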

How the results depend on the processing

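Across the 11 alternative settings and the 12 fits without 1 sample, the named genes' values kept their direction and their side of the threshold in 2193 cases, passed it in 14, missed it in 27 and turned in 9. Lower in PC-3 with MS13 were 99 genes with TMM, 124 with positive probes and 117 at 1.5-fold, against 65. The difference of line differences was called upward in 34, 28 and 123 genes and downward in 56, 66 and 65 under those settings, against 55 and 35. Widened genes were 8 with positive probes, 3 at a minimum mean of 50, 17 with the negative probe mean subtracted and 31 at 1.5-fold. Genes that differed only with MS13 were 14 with positive probes and 26 at 1.5-fold, where 91 were alike, 46 narrowed and 9 turned. Genes with a difference with MS13, a called change and background in controls were 2 with DESeq2. There was 1 each at a minimum mean of 50 and after subtraction, and at a minimum mean of 50 no gene (0) had the reverse. The turned values were SPRY4 (-0.06 with TMM, -0.19 with positive probes), RB1 (-0.11, -0.24 and 0 with TMM, positive probes and the 10 most stable housekeeping genes) and STK11 (-0.21, -0.34 and -0.10, and -0.01 and 0.22 as the lowest and highest value with 1 sample left out, without DU 145 MS13 replicate 1 and replicate 2), and the cause was not tested. With TMM the MS13 differences of PTPRR (0.95), IL6 (0.89), PLAU (0.74), RAD21 (0.78) and STAG2 (0.95) missed 2-fold, as did the changes of MECOM (0.96), E2F5 (0.94) and SHC1 (0.99), while DUSP5 passed it (-1.25). Leaving out 1 sample at a time gave 119 to 127 genes higher and 64 to 68 lower with MS13, 119 to 124 and 81 to 87 in controls, changes of 53 to 64 upward and 34 to 38 downward, and 104 to 111 kept, 194 to 200 alike, 16 to 21 converged, 21 to 24 narrowed, 4 to 9 widened, 7 to 11 only with MS13, 2 turned, 2 to 6 with background in controls and 9 to 12 with background with MS13. The 9 widened genes came without DU 145 control replicate 3 or PC-3 control replicate 2. With all 12 samples kept separate and a replicate block, 188 of the same 189 genes were called. Same-numbered samples of the lines deviated together at correlations of 0.10, 0.04 and 0.07 over 432 genes. Those with different numbers lay lower, from -0.087 to 0.012, so whether the numbers pair the samples cannot be told. Genes near the negative probes are limited by background, and 187 tested genes lay under the limit in both lines with MS13.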
